A study of Mus musculus with 6 samples.

Results

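Genes of the cell division cycle were described in whole mouse hearts long after myocardial infarction. The set holds 35 genes, chosen by name: 12 act in DNA replication and its onset, and 23 act around mitosis. Of these, 32 had a feature on the array, 11 replication and 21 mitosis genes, among 22206 features in all; Mcm7, Ccnb1 and Foxm1 were not analysed here. No member had more than 1 feature. Expression was measured on Clariom S mouse arrays in 6 male mice, 1 array per heart, in 3 groups of 2 independent hearts. All mice were 8 weeks old at ligation of the left coronary artery, and all carried the Tcf21iCre and Tomato alleles, a Cre driven from Tcf21, a gene of resident cardiac fibroblasts, with a fluorescent reporter. Control hearts (Ctrl, Tcf21iCre/Tomato) were taken 2 or 3 months after infarction. Transgenic hearts (TTg, Tcf21iCre/Tomato/MGTH2A) were taken at 3 months and had a further allele, MGTH2A, which encodes Mef2c, Gata4, Tbx5 and Hand2, factors of heart muscle gene expression. The labels give no schedule for inducing the Cre, and mice whose ejection fraction stayed above 45% at 2 days had been removed. There was no uninjured heart.

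Cells that divide first license their DNA, loading the MCM helicase (Mcm2 to Mcm7) with the help of Cdc6. Cyclin E (Ccne1, Ccne2) then drives entry into DNA synthesis, for which ribonucleotide reductase (Rrm1, Rrm2) supplies nucleotides and the clamp Pcna holds the polymerases on the template. Later, cyclins A and B with Cdk1 drive the cell into mitosis, kinases and kinesins build the spindle, the Bub proteins hold the checkpoint, and Cdc20 and Ube2c start the destruction of cyclins that ends it. Adult cardiomyocytes rarely divide, so in an infarcted heart these transcripts are known mainly from fibroblasts, endothelial and immune cells. Pcna also serves in DNA repair. In RNA from whole hearts, fewer dividing cells and less RNA per dividing cell cannot be told apart.

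Replication and mitosis genes are known for different promoter elements, so their promoters were compared. RefSeq promoters (GRCm38.p6, 250 bases before to 50 after the start) matched 9 of the 11 measured replication genes and 17 of the 21 measured mitosis genes. The elements searched, on both strands, were the cell cycle homology region CHR (TTTGAA), the NF-Y box (CCAAT) and E2F sites (TTTCCCGC, TTTGGCGC, TTTCGCGC or TTTGCCGC). A CHR word stood in 13 of the 17 mitosis promoters (76.5%), in 1 of the 9 replication promoters (11.1%) and in 20.2% of all 27025 genes with a promoter. An E2F word stood in 4 of the 9 replication promoters (44.4%), in 1 of the 17 mitosis promoters (5.88%) and in 2.6% of all genes. The NF-Y box was found in 77.8% of the replication and 88.2% of the mitosis promoters, against 41.1% of all genes. A gene with more than 1 listed promoter counts as holding a word if any of them does, and words of E2F sites can overlap each other. A match describes the letters and is not a measured binding site.

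**Figure D1:**
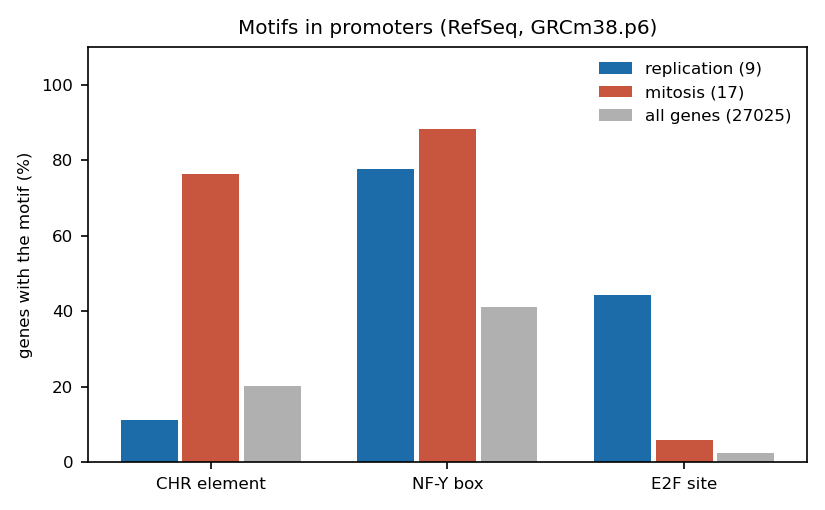
Share of genes (%) whose RefSeq promoter holds a CHR element, an NF-Y box or an E2F site, for 9 replication genes, 17 mitosis genes and all 27025 genes with a promoter. CHR elements stood in 76.5% of the mitosis and 11.1% of the replication promoters, and E2F sites in 5.88% and 44.4%.

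The promoters below illustrate the difference, with every matched word in capitals. Not every gene followed it: Mcm2 holds a CHR word and no E2F word, and Bub1 holds no CHR word. Mcm6 (chr1:128359656-128359955, minus strand) carries E2F words and no CHR word. Pcna (chr2:132253131-132253430, minus strand) carries an NF-Y box alone. Mki67 (chr7:135716330-135716629, minus strand) and Top2a (chr11:99024140-99024439, minus strand) carry CHR words beside several NF-Y boxes. Cdk1 (chr10:69352863-69353162, minus strand) is the mitosis gene that holds all the elements.
Mcm6: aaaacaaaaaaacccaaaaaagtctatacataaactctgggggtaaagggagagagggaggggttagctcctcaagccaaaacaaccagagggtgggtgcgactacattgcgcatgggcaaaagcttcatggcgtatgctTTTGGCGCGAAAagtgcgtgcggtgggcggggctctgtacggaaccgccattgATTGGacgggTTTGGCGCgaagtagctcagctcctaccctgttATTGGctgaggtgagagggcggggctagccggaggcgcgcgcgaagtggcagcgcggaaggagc
Pcna: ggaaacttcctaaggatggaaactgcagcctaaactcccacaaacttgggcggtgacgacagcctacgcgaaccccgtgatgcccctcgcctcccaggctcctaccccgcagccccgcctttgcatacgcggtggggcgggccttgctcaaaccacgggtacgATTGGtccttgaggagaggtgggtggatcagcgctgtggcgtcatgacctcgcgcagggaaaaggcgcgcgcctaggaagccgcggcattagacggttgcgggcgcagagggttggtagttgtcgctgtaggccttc
Mki67: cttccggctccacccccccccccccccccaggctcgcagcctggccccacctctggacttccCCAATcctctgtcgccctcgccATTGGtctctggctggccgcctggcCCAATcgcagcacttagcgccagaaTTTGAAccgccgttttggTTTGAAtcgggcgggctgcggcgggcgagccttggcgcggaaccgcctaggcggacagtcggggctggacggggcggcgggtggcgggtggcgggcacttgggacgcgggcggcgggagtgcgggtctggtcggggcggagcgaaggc
Top2a: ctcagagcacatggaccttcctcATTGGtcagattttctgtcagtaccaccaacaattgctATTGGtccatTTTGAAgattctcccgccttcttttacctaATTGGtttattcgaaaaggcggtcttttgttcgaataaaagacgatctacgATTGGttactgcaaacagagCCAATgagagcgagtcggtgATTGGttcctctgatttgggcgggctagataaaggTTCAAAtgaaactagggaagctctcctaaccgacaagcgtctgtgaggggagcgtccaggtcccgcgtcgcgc
Cdk1: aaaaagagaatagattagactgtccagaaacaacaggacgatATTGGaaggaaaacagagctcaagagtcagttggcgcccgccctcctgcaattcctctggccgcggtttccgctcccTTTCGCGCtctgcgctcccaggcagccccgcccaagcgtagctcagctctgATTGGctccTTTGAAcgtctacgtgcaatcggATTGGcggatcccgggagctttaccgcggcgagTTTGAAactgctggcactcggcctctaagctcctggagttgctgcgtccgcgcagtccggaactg

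The signals of the mitosis genes were weak. Values are deposited log2 values per feature, and a mean below 3.65, the 30th percentile of all features, was taken as dim. Of the 21 mitosis genes, 19 had a mean below the median feature and 7 were dim (Cdk1, Bub1, Bub1b, Aurka, Cdc20, Cenpf and Prc1). The size of a difference in these 7 depends on the background. None of the 11 replication genes was dim, and 5 lay below the median feature. Each probe set has its own response, so these ranks place a feature's signal on the array and do not compare the abundance of transcripts. Array medians ran from 4.91 to 5.0. Markers of heart muscle were high on all arrays, with means of 10 cardiomyocyte genes between 18.19 and 18.72.

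The members differed between individual hearts, also within a group. Whether they differed more between hearts than between groups was not tested. The Ctrl heart that is replicate 1 at 3 months had the highest value of the 6 arrays for 16 of the 32 members and the lowest for none. Across all features that array was highest in 19.3% and lowest in 18.3%. TTg replicate 2 had the lowest value for 12 members and the highest for none, against 16.5% and 17.0% of all features. Each gene was then set against its own mean over the 6 arrays, and the median of these deviations was taken for each list. Mitosis genes stood at 0.13 and -0.07 in the 2-month Ctrl hearts, at 0.53 and -0.14 in the 3-month Ctrl hearts and at -0.08 and -0.42 in TTg (replicates 1 and 2). Replication genes stood at 0.19 and 0.03, at 0.35 and -0.19, and at -0.31 and -0.12. Both lists were thus highest in Ctrl replicate 1 at 3 months and below their mean in its partner and in both TTg hearts. In the TTg pair the order of the hearts differed between the lists: mitosis minus replication was 0.23 in replicate 1 and -0.30 in replicate 2. In the other 4 hearts that difference lay between -0.10 and 0.18.

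**Figure D2:**
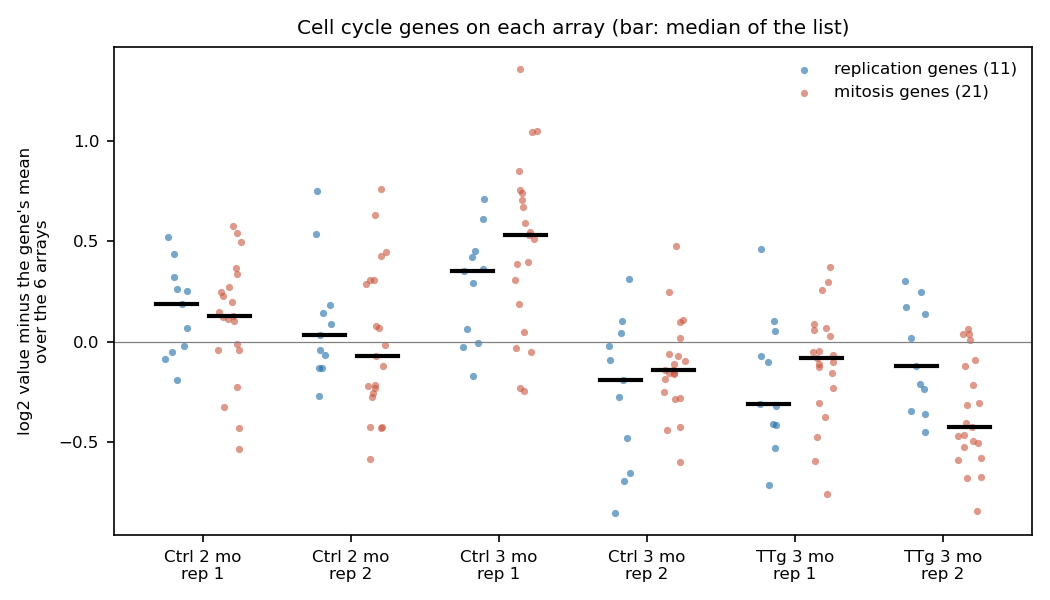
Each point is 1 gene on 1 array, as its log2 value minus the gene's mean over the 6 arrays; blue points are the 11 replication genes, red points the 21 mitosis genes, and bars the list medians. Ctrl replicate 1 at 3 months has the highest medians, 0.35 and 0.53, and TTg replicate 2 the lowest mitosis median, -0.42.

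The gap within the Ctrl pair at 3 months was wider than either list's median difference between any of the groups. Replicate 1 exceeded replicate 2 for 17 of the 21 mitosis genes, with a median gap of 0.69, and for 9 of the 11 replication genes, with a median gap of 0.44. Over all features replicate 1 was the higher in 51.0%. In TTg, replicate 1 was the higher for 15 of the 21 mitosis genes and 4 of the 11 replication genes, with median gaps of 0.34 and -0.19. At 2 months it was the higher for 14 mitosis and 6 replication genes, with median gaps of 0.18 and 0.11.

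Markers of fibroblasts and macrophages moved across the hearts as well. The mean level of 9 measured fibroblast markers (of 10, among them Col1a1, Dcn and Postn) was 13.42 and 11.71 in the 2-month Ctrl hearts, 13.35 and 12.39 in the 3-month Ctrl hearts, and 11.96 and 10.74 in TTg. That of 9 macrophage markers (of 10, among them Csf1r, C1qa and Lyz2) was 9.90 and 8.83, then 10.15 and 8.67, then 8.29 and 7.53. All 9 markers of each list were higher in replicate 1 than in replicate 2 in every group, and all 9 of each had a lower mean in TTg than in Ctrl at 3 months. No fibroblast marker and at most 1 macrophage marker was below the dim limit on any array. Means of the endothelial markers ran from 10.58 to 11.11 and those of the mural cell markers from 8.69 to 9.32. These means average genes that moved in opposite directions. Between TTg and Ctrl at 2 months 5 endothelial markers were higher and 4 lower (Kdr 2.14 ± 0.33, Vwf -1.68 ± 0.59). Of the mural markers 8 were higher and 2 lower there (Acta2 2.23 ± 0.59, Tagln -0.82 ± 0.66). Means of the T and NK cell markers (3.54 to 3.99), B and plasma cell markers (3.56 to 4.55) and neutrophil markers (3.30 to 4.04) lay lower on the scale, and 3 erythroid markers averaged 5.03 to 5.48. Of the 6 measured B and plasma cell markers (of 8), 5 had a lower mean in TTg than in Ctrl at 3 months. Among them Jchain, which encodes a chain of secreted immunoglobulins, was the single feature of the array that passed limma's test there, at 9.07 and 8.87 in Ctrl and 4.75 and 5.08 in TTg (-4.06 ± 0.27, adjusted p = 0.0278). The part of these cells in the members' differences was not tested.

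**Figure D3:**
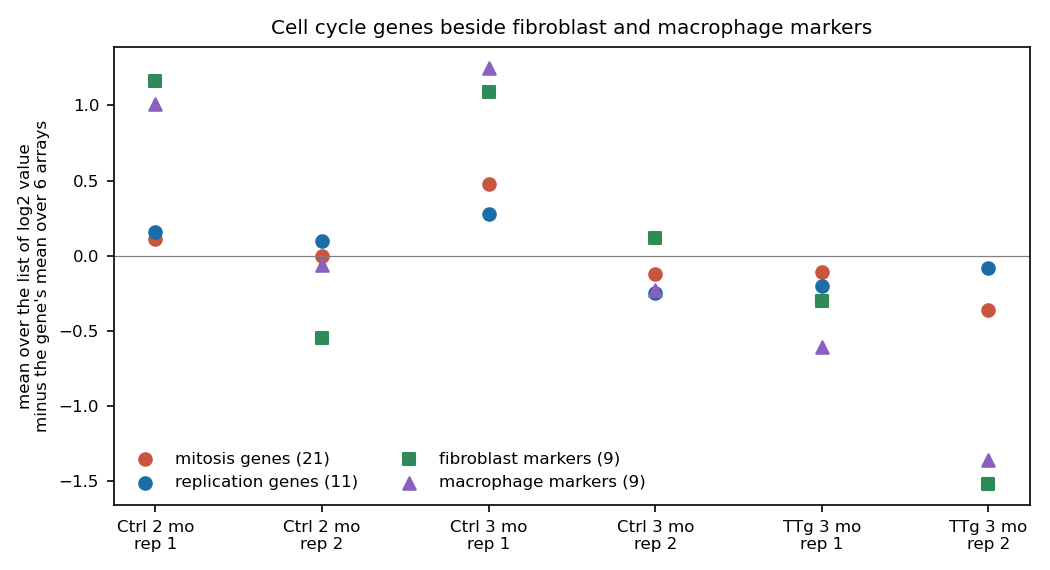
Mean over each list of the log2 value minus each gene's mean over the 6 arrays, for 21 mitosis genes, 11 replication genes, 9 fibroblast and 9 macrophage markers. Ctrl replicate 1 at 3 months is high and TTg replicate 2 is low in mitosis genes (0.48 and -0.36) and in both marker lists. Ctrl replicate 1 at 2 months is high in fibroblast (1.16) and macrophage markers (1.01), with mitosis genes at 0.11. Replication genes are lowest in Ctrl replicate 2 at 3 months (-0.25) and at -0.08 in TTg replicate 2.

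TTg and Ctrl hearts of the same age differ by the MGTH2A allele. Most cell cycle genes had a lower mean in TTg: 17 of the 21 mitosis genes were lower, 3 higher and 1 (Birc5) equal, and 9 of the 11 replication genes were lower. In all features, 48.3% had a lower and 50.9% a higher mean. The median difference was -0.25 on the log2 scale for mitosis genes and -0.18 for replication genes, against 0.01 for all features. By limma no member had an adjusted p under 0.05 over all features, where 0.00450% of features did (smallest adjusted p of a member 0.661). At an unadjusted p under 0.05 in limma there were 2 members, Bub1 and Bub1b, both lower, that is 6.25% of the members against 7.47% of all features (4.11% lower, 3.35% higher). There was no overlap of the groups' values for 8 members that were lower (25%) and 1 that was higher (3.12%), against 19.3% and 19.1% of all features. Without Ctrl replicate 1 the mitosis genes were lower in 13 of 21 (median -0.18) and the replication genes in 6 of 11 (median -0.08). Without Ctrl replicate 2 the medians were -0.71 and -0.44, and without TTg replicate 1 they were -0.50 and -0.04.

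Between 2 and 3 months after infarction, the comparison of the Ctrl groups asks how the infarcted heart without the transgene changed with time. The lists differed in direction: 14 of the 21 mitosis genes had a higher mean at 3 months (median difference 0.18), whereas 7 of the 11 replication genes had a lower one (median -0.12), against 48.8% lower, 50.5% higher and a median of 0.01 in all features. No member passed limma's test (smallest adjusted p 0.604), where 0.00450% of features did. Pcna and Cdk1, both lower, had an unadjusted p under 0.05 in limma, 6.25% of the members against 8.00% of all features (4.09% lower, 3.91% higher). Groups that do not overlap were found for 4 lower (12.5%) and 2 higher (6.25%) members, against 17.4% and 18.3% of all features. The direction of the mitosis genes rested on Ctrl replicate 1 at 3 months, without which 15 of the 21 were lower (median -0.17) and 9 of the 11 replication genes were lower (median -0.20). Without Ctrl replicate 2 at 3 months the medians were 0.53 and 0.24, and without Ctrl replicate 1 at 2 months the replication median was 0.02 and the mitosis median 0.28.

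TTg hearts at 3 months were also set against Ctrl hearts at 2 months, a comparison that joins genotype and time and shares its samples with the other comparisons. Both lists had lower means in TTg, 15 of the 21 mitosis genes (median -0.33) and 8 of the 11 replication genes (median -0.26), against 47.3% lower, 52.1% higher and a median of 0.02 in all features. No feature passed limma's test (0.00% of features), and the smallest adjusted p of a member was 0.370, that of Pcna. At an unadjusted p under 0.05 limma gave 4 members, Pcna, Rrm2, Bub1b and Kif20a, all lower, 12.5% of the members against 9.71% of all features (5.41% lower, 4.30% higher). The groups did not overlap for 13 lower (40.6%) and 2 higher (6.25%) members, where 18.9% and 21.2% of all features had such gaps. Without TTg replicate 1 the replication median was -0.16 and the mitosis median -0.51. Without TTg replicate 2 they were -0.34 and -0.10, so which list was lower depended on the TTg heart left out.

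**Figure D4:**
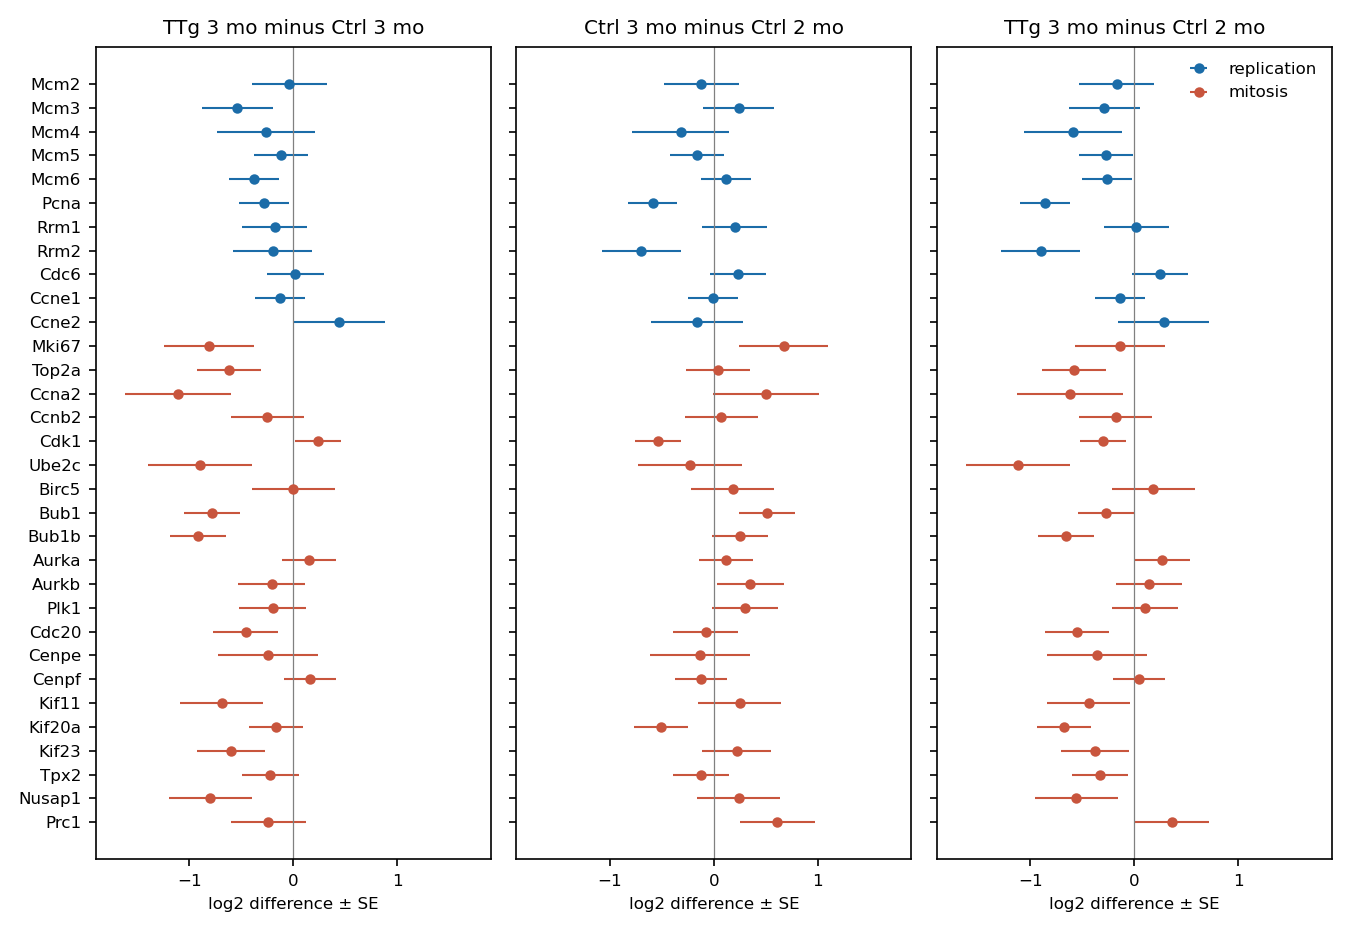
Log2 difference of group means ± SE from limma (n = 2 arrays in each group) for the 32 members in the 3 comparisons, replication genes in blue and mitosis genes in red. Most points lie left of 0 in the TTg comparisons, and no member passed the test over all features.

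Among the replication genes, Pcna, the sliding clamp of DNA polymerases, was highest at 2 months and lowest in TTg. Its values were 12.48 and 12.58 in the 2-month Ctrl hearts, 12.11 and 11.77 in the 3-month Ctrl hearts, and 11.63 and 11.70 in TTg. The groups did not overlap in any comparison. TTg differed from Ctrl at 2 months by -0.86 ± 0.24 (SE, n = 2, 1.82-fold lower), with an adjusted p in limma of 0.370 and a range of 0.264 to 0.867 over the alternatives. Ctrl at 3 months differed from Ctrl at 2 months by -0.59 ± 0.24 (adjusted p = 0.604), and TTg from Ctrl at 3 months by -0.28 ± 0.24 (adjusted p = 0.834). Pcna kept these directions under quantile normalization, under median centring and with each array of the compared groups left out. The other alternatives cannot change a difference of group means.

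Rrm2, the small subunit of ribonucleotide reductase, was at 6.02 and 6.45 in the 2-month Ctrl hearts, 6.06 and 5.01 in the 3-month Ctrl hearts, and 5.17 and 5.49 in TTg. TTg lay below both 2-month hearts, by -0.90 ± 0.38 (limma, adjusted p = 0.512), while of the 3-month Ctrl hearts 1 lay within the 2-month group and 1 below TTg. Rrm1, the large subunit, differed by 0.02 ± 0.31 in the same comparison, and its values spanned 7.10 to 7.86 over all hearts. The difference between the subunits was not tested.

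Of the MCM helicase genes, Mcm2, Mcm3 and Mcm4 followed single hearts. Mcm2 was at 5.53 and 5.20 in the 2-month Ctrl hearts, 5.69 and 4.79 in the 3-month Ctrl hearts, and 4.95 and 5.44 in TTg. Mcm4 was at 5.76 and 5.33, then 5.85 and 4.59, then 4.53 and 5.38. Mcm3 was at 4.93 and 4.82, then 5.57 and 4.67, then 4.76 and 4.41. All of these were highest in Ctrl replicate 1 at 3 months, and the 3-month Ctrl pair alone spanned most of their range. Mcm6 was also highest on that array, but its 3-month Ctrl pair spanned less of its range. TTg differed from Ctrl at 3 months by -0.04 ± 0.36 for Mcm2, -0.54 ± 0.34 for Mcm3 and -0.38 ± 0.24 for Mcm6, with adjusted p in limma of 0.992, 0.774 and 0.772. The sign for Mcm2 turned to 0.40 without Ctrl replicate 1. Mcm6 was the helicase gene whose TTg values (6.17 and 6.36) lay below both Ctrl hearts at 3 months (6.77 and 6.52). Mcm5 stayed between 3.71 and 4.32.

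Cdc6, the loader of the helicase, had values from 3.62 to 4.12 with its highest in Ctrl replicate 2 at 3 months, and Ccne1 had values from 4.66 to 5.08. Ccne2 was at 4.14 and 3.68 in the 2-month Ctrl hearts, 4.40 and 3.10 in the 3-month Ctrl hearts, and 4.41 and 3.97 in TTg. Its difference between TTg and Ctrl at 3 months, 0.44 ± 0.44 (adjusted p = 0.863 in limma), was the largest positive one among the replication genes. Ctrl replicate 2 at 3 months had the lowest value of all hearts, and the difference was -0.21 without it.

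Among the mitosis genes, Mki67, the gene of the proliferation marker Ki-67, was at 6.30 and 5.49 in the 2-month Ctrl hearts, 7.12 and 6.01 in the 3-month Ctrl hearts, and 5.84 and 5.67 in TTg. Both TTg hearts lay below both Ctrl hearts at 3 months but within the range of the 2-month hearts. The differences were -0.81 ± 0.43 against Ctrl at 3 months (1.75-fold lower, adjusted p = 0.715 in limma) and -0.14 ± 0.43 against Ctrl at 2 months. Ctrl at 3 months differed from Ctrl at 2 months by 0.67 ± 0.43 (adjusted p = 0.727). Without Ctrl replicate 1 at 3 months the difference from Ctrl at 3 months was -0.26 and that between the Ctrl groups 0.12.

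Top2a, the topoisomerase that untangles replicated chromosomes, was at 5.12 and 4.33, then 4.73 and 4.79, then 4.24 and 4.05. TTg was below every Ctrl heart, by -0.62 ± 0.31 at 3 months (adjusted p = 0.700 in limma) and -0.58 ± 0.31 against 2 months (adjusted p = 0.590). Ccna2, cyclin A2 of S phase and G2, was at 4.36 and 3.77, then 5.38 and 3.74, then 3.55 and 3.35. TTg was again below every Ctrl heart, and the difference of -1.11 ± 0.51 at 3 months (2.16-fold lower, adjusted p = 0.688) was the largest of any member there. It was -0.29 without Ctrl replicate 1 and -1.93 without Ctrl replicate 2.

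Cdk1, the kinase that drives entry into mitosis, went the other way, at a dim level. Its values were 3.14 and 3.20 in the 2-month Ctrl hearts, 2.66 and 2.61 in the 3-month Ctrl hearts, and 2.84 and 2.90 in TTg. The 3 groups did not overlap, with TTg between the Ctrl groups. The differences were 0.24 ± 0.22 for TTg against Ctrl at 3 months and -0.54 ± 0.22 for Ctrl at 3 against 2 months (adjusted p = 0.849 and 0.609 in limma). All 6 values lay below 3.65, where differences depend on the background.

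Among the 32 members, the checkpoint genes gave the lowest unadjusted p-values for TTg against Ctrl at 3 months. Bub1b, which encodes the checkpoint protein BubR1, was at 3.34 and 3.22 in the 2-month Ctrl hearts, 3.81 and 3.25 in the 3-month Ctrl hearts, and 2.55 and 2.68 in TTg. TTg was below every Ctrl heart, by -0.92 ± 0.27 at 3 months (1.89-fold lower, unadjusted p = 0.0107, adjusted p = 0.661 in limma, range 0.254 to 0.999 over the alternatives). Bub1, its partner kinase, was at 3.35 and 2.96, then 3.62 and 3.71, then 3.11 and 2.66, a difference of -0.78 ± 0.27 at 3 months (adjusted p = 0.661 in limma). The values of TTg and Ctrl at 3 months did not overlap for either gene, and both genes are dim. Cdc20, the activator of the anaphase-promoting complex that the checkpoint restrains, differed by -0.46 ± 0.31, with TTg below every Ctrl heart.

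Ube2c, the ubiquitin-conjugating enzyme of that complex, was at 4.44 and 4.80 in the 2-month Ctrl hearts, 5.21 and 3.57 in the 3-month Ctrl hearts, and 3.41 and 3.58 in TTg. TTg and Ctrl replicate 2 at 3 months thus had nearly the same level, and the other 3 Ctrl hearts were higher. TTg differed from Ctrl at 2 months by -1.12 ± 0.50 (2.18-fold lower, adjusted p = 0.534 in limma). The difference from Ctrl at 3 months, -0.90 ± 0.50, was -0.08 without Ctrl replicate 1.

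Spindle and cytokinesis genes differed among themselves. Kif20a, a kinesin of the central spindle, was at 4.20 and 4.26 in the 2-month Ctrl hearts, 3.59 and 3.85 in the 3-month Ctrl hearts, and 3.79 and 3.31 in TTg, so both 3-month groups lay below both 2-month hearts (TTg against Ctrl at 2 months -0.68 ± 0.26, adjusted p = 0.486 in limma). Prc1, which bundles microtubules of that spindle, was at 3.00 and 2.80, then 3.98 and 3.04, then 3.52 and 3.01, higher at 3 than at 2 months by 0.61 ± 0.36 in Ctrl (adjusted p = 0.712). Kif11, Kif23 and Nusap1, genes of spindle assembly, were highest in Ctrl replicate 1 at 3 months, at 5.5, 6.17 and 5.59. Their differences between TTg and Ctrl at 3 months were -0.69, -0.60 and -0.80. Aurkb and Plk1, mitotic kinases, were also highest on that array and differed by -0.21 and -0.20. Aurka and Cenpf had their highest values in TTg replicate 1 and differed by 0.15 and 0.16. Cenpe, Tpx2 and Ccnb2 had overlapping groups in every comparison, with differences at 3 months of -0.24, -0.22 and -0.25.

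**Figure D5:**
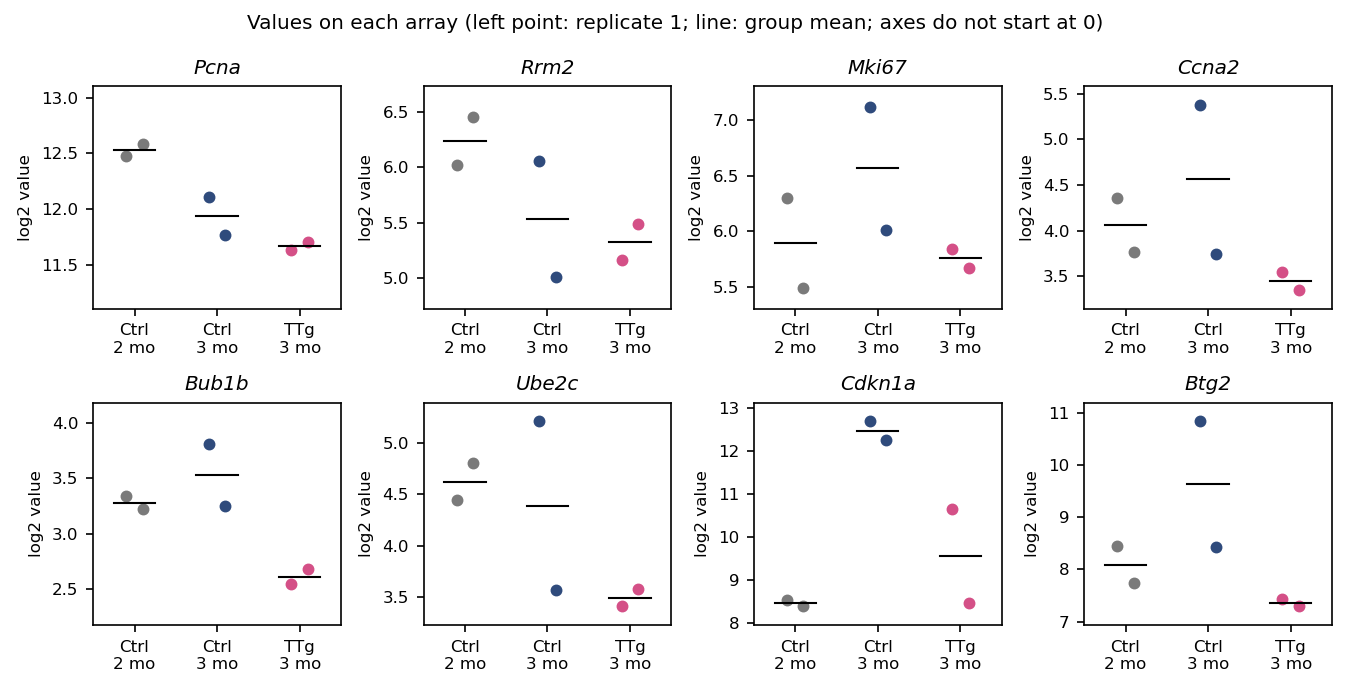
Deposited log2 values of 8 genes on each of the 6 arrays, replicate 1 as the left point of each pair and lines at group means; the vertical axes do not start at 0. Pcna is highest at 2 months and lowest in TTg, Ccna2 and Ube2c are spread widely in the 3-month Ctrl hearts, and Cdkn1a is high in both Ctrl hearts at 3 months.

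Other genes of the same processes were followed in lists written from general knowledge, and none of their measured genes passed limma's test in any comparison. Of 36 measured further replication genes (of 38), 17 had a lower mean in TTg than in Ctrl at 3 months (median 0.06). Of 52 measured further mitosis genes (of 53), 28 were lower (median -0.03). The differences between these lists and the members were not tested. Of the 52 further mitosis genes, 20 (38.5%) were highest in Ctrl replicate 1 at 3 months, against 19.3% of all features. Only 6 of the 36 further replication genes (16.7%) were highest there, and their median deviation on that array was 0.0. In the 3-month Ctrl pair replicate 1 was higher for 38 of these mitosis genes and 22 of these replication genes. Over all features it was higher in 51.0%. In the wider mitosis list Smc4, a condensin subunit, had the largest difference, -1.25 ± 0.45 (10.90 to 9.65, adjusted p = 0.661), and Knl1, a kinetochore scaffold, differed by -0.74 ± 0.27. In the wider replication list Prim2, a primase subunit, differed by -0.78 ± 0.29 and Gins3 by -0.72 ± 0.37.

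Between the Ctrl groups 24 of the 36 further replication genes were lower at 3 months (median -0.09) and 26 of the 52 further mitosis genes (median 0.00). Rpa3, a subunit of the single-strand binding protein, was at 7.63 and 6.54 at 2 months and 5.65 and 5.48 at 3 months, a difference of -1.52 ± 0.36 (adjusted p = 0.466 in limma). TTg lay between, at 6.28 and 6.21. Prim1, the catalytic primase subunit, differed by -1.16 ± 0.33. Sgo1, which protects the cohesion of centromeres, was at 5.20 and 5.21, then 4.27 and 4.67, then 3.91 and 3.81, so its groups did not overlap in any comparison. TTg differed from Ctrl at 2 months by -1.34 ± 0.24 for Sgo1 (2.54-fold lower, adjusted p = 0.340 in limma, range 0.121 to 0.867 over the alternatives). Pttg1, which encodes securin, was at 7.38 in Ctrl replicate 1 at 2 months and between 10.75 and 11.36 in the other 5 hearts. Its difference of 2.02 ± 0.98 between TTg and Ctrl at 2 months passed at 3.8 without Ctrl replicate 2 (adjusted p = 0.0413, range 0.0413 to 0.959) and was 0.24 without Ctrl replicate 1. In that comparison 21 of the 36 further replication genes (median -0.15) and 32 of the 52 further mitosis genes (median -0.09) were lower.

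In regulators of G1 and the E2F network no gene passed the test. Of 9 measured G1 cyclins, CDKs and their activators (of 10), 6 were lower in TTg than in Ctrl at 3 months (median -0.28), 6 lower at 3 than at 2 months (median -0.17) and 6 lower in TTg than in Ctrl at 2 months (median -0.16). Cdk2, a partner of cyclin E, differed by -0.68 ± 0.27 in the last of these, Skp2 by -0.72 ± 0.22, and Ccnd3, cyclin D3, by -0.44 ± 0.30 at 3 months. Of 18 genes of E2F, the RB family and the DREAM complex, 11, 8 and 10 were lower in these comparisons, with medians of -0.04, 0.03 and -0.05. The RB-family gene Rbl1 differed by -0.67 ± 0.27 between TTg and Ctrl at 3 months, and Lin37, a DREAM subunit, by -1.0 ± 0.36 between TTg and Ctrl at 2 months. E2f1 was dim and differed by -0.53 ± 0.29 between the Ctrl groups.

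Among 14 inhibitors of the cycle, Cdkn1a had the largest difference at 3 months and between the Ctrl groups. Cdkn1a, which encodes the CDK inhibitor p21, was at 8.54 and 8.39 in the 2-month Ctrl hearts, 12.69 and 12.25 in the 3-month Ctrl hearts, and 10.65 and 8.47 in TTg. Both Ctrl hearts at 3 months stood above all other hearts, and TTg replicate 2 had the level of the 2-month hearts. Ctrl at 3 months differed from Ctrl at 2 months by 4.0 ± 0.63 (16.1-fold higher, unadjusted p = 3.51e-04, adjusted p = 0.377 in limma, range 0.0883 to 0.789 over the alternatives), and TTg from Ctrl at 3 months by -2.91 ± 0.63 (7.52-fold lower, adjusted p = 0.646, range 0.0848 to 0.999). The latter was -1.82 without TTg replicate 2 and -4.0 without TTg replicate 1. Against Ctrl at 2 months TTg differed by 1.10 ± 0.63 (adjusted p = 0.627). That difference was 2.18 without TTg replicate 2 and 0.0 without TTg replicate 1. Btg2, an antiproliferative gene that responds early to stimuli, was at 8.44 and 7.74, then 10.84 and 8.42, then 7.44 and 7.29, and differed by -2.26 ± 0.70 between TTg and Ctrl at 3 months (adjusted p = 0.661). That value was -1.06 without Ctrl replicate 1. Gas1, a growth arrest gene, differed by -1.06 ± 0.43 between TTg and Ctrl at 2 months. The list as a whole did not follow Cdkn1a: of its 14 genes 9 were lower in TTg at 3 months (median -0.04), 8 lower at 3 than at 2 months in Ctrl (median -0.20) and 10 lower in TTg than in Ctrl at 2 months (median -0.40).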

How the data were processed

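RNA from 6 hearts, 100 ng per array and of an integrity number over 7.0 per the labels, was measured on Clariom S arrays. The authors deposited log2 values per array feature; the submitters' processing notes list Transcriptome Analysis Console 4.0, but the background, summary and normalization methods are not given in the sources used here. The number of arrays limits the precision.

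All 22206 features were used as deposited, of which 19572 had a symbol in the platform annotation. Groups came from the sample titles. limma 3.58.1 in R 4.3.3 was fitted to all 6 arrays with 1 coefficient per group (3 residual and 4.13 prior degrees of freedom), two-sided, with Benjamini-Hochberg adjustment over all features and a threshold of 0.05. With 2 arrays a group, the smallest two-sided exact permutation p is 0.333. Errors are SEs of this fit. The pipeline was tested on simulated data. Lists have counts and medians and no test. Values on every array are given for Mki67, Top2a, Cdk1, Pcna and Mcm2, for members with an unadjusted p under 0.05, and for the 3 members of each list with the largest absolute difference in a comparison; of other lists the 2 largest are named. Lists, members and rules were chosen with earlier results of these data known. Alternatives were other priors, quantile normalization, median centring, no dim features, the compared groups alone, a replicate block and leaving out each array.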

Additional observations from a re-analysis of the deposited data

How the results depend on the processing

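No member passed limma's test in any of the 39 fits under 13 alternatives to the 3 comparisons, with a smallest adjusted p of 0.192. The 39 fits are not all distinct, since dropping an array of the group outside a comparison repeats the fit of the compared groups alone. The features that passed in TTg against Ctrl at 3 months were 1 with all arrays, 2 with the compared groups alone and 11 with the replicate block. In Ctrl at 3 against 2 months they were 1, and 0 with an intensity trend, with quantile normalization and without dim features. In TTg against Ctrl at 2 months they were 0, 1 with a robust prior and 5 with the replicate block. With 1 array left out, its lone partner being taken to vary as the remaining groups do, these counts ran from 0 to 2, 0 to 6 and 0 to 22. The replication medians then ran from -0.44 to -0.04, -0.26 to 0.24 and -0.34 to -0.16 in these comparisons, and the mitosis medians from -0.71 to -0.18, -0.17 to 0.53 and -0.51 to -0.10. Mitosis minus replication was -0.06, 0.31 and -0.07 with all arrays and ran from -0.46 to 0.02, 0.03 to 0.42 and -0.34 to 0.24. With all arrays kept, only quantile normalization and median centring can change a difference of group means. Under quantile normalization Cdc6 turned from 0.02 to -0.01 for TTg against Ctrl at 3 months. Cenpf turned under it from 0.04 to -0.02 for TTg against Ctrl at 2 months. No other member turned sign under either setting. With an array left out, each gene was followed in the comparisons for which the naming rule chose it. There Mcm2 turned to 0.40 and 0.20 for TTg against Ctrl at 3 months (range -0.50 to 0.40). It turned to 0.04 and 0.32 between the Ctrl groups (-0.57 to 0.32) and to 0.08 for TTg against Ctrl at 2 months (-0.42 to 0.08). Ccne2 turned to -0.21 for TTg against Ctrl at 3 months (-0.21 to 1.09). Between the Ctrl groups Lin37 turned to 0.03 (-1.03 to 0.03), Top2a to -0.36 (-0.36 to 0.43) and Mcm4 to 0.30 (-0.96 to 0.30). Mki67 turned to 0.26 for TTg against Ctrl at 2 months (-0.55 to 0.26). Further members turned sign in other comparisons. For TTg against Ctrl at 3 months they included Rrm2, from -0.20 to 0.32, and Mcm4, from -0.26 to 0.36. Between the Ctrl groups they included Ccna2 (0.50 to -0.32), Ube2c (-0.23 to 0.59), Mcm3 (0.24 to -0.20) and Bub1b (0.25 to -0.03). The cause was not tested.

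The replicate numbers are not known to pair hearts. Deviations of same-numbered hearts correlated at 0.133, 0.136 and 0.12 between the groups, and the block gave 5, 0 and 3 members with an unadjusted p under 0.05 in place of 2, 2 and 4, where 9.53%, 9.37% and 11.6% of all features had one under the block. No member was repeated on the array, so there were no repeated features to average. Leaving out Mki67, Top2a and Ccna2 or taking means moved no list by more than its spread between replicates (pooled SD 0.24 for replication, 0.32 for mitosis).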
